A study of Mus musculus with 6 samples.

Results

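The genes of mitosis and the spindle were followed in splenic natural killer (NK) cells of C57Bl/6 mice, sorted into cells with and without CD117 at the surface; CD117 is the product of Kit, a receptor tyrosine kinase. The set holds 38 genes chosen by symbol, with earlier results of these data known. They encode the mitotic cyclins and Cdk1, the mitotic kinases, the spindle checkpoint, the centromere, the kinesins and the cytokinesis machinery. Of these, 37 had a named probe among the 17626 genes on the array, and Ccnb1, a mitotic cyclin, had none listed in the platform annotation and was not analysed here. Each gene was represented by 1 probe, the one with the highest mean in the deposited value table. In Kit+ samples the cells were CD3-negative, NK1.1-positive and CD117-positive, and in Kit- samples they were CD3-negative, NK1.1-positive and CD117-negative. Both groups came from female mice aged 7 weeks, with no treatment or altered allele named in the labels, and the cells were enriched magnetically before the sort. Each group had 3 samples, numbered 1 to 3 in the titles, and the labels state that sorting and comparison were done 3 times. The labels do not say how many mice gave the cells of a sort.

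A dividing cell enters mitosis when Cdk1 is bound and activated by cyclins A and B, and Polo and Aurora kinases then drive spindle assembly and chromosome alignment. The spindle checkpoint holds back the anaphase-promoting complex until every kinetochore is attached, and the central spindle then directs the cleavage of the cell. Transcripts of these genes accumulate together in late S phase, G2 and mitosis and are low in resting cells, so they serve as a readout of cycling cells in lymphocyte populations. Immature NK cells divide more than mature ones, and Kit is found on early NK cells as well as on progenitors of several blood lineages.

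Signals are given as log2 intensity after background correction and quantile normalization. The background level of an array was the 95th percentile of its 1176 olfactory and vomeronasal receptor probes, which lay between 6.58 and 7.23, and a probe above that level is called above background. The share of all probes above it was 18.7% to 27.5% on Kit+ arrays and 15.1% to 29.8% on Kit- arrays. The Kit- sample of number 2 had the highest background level, the lowest share of probes and the lowest 99th percentile of raw intensity, 1027. That percentile was far higher on both number 1 arrays, 4850 for Kit+ and 6370 for Kit-. It was 1355 for Kit+ 2, 1516 for Kit+ 3 and 1951 for Kit- 3. Kit itself, the gene of the sort, had 10.68, 12.09 and 10.76 in Kit+ samples 1 to 3, against 7.73, 8.79 and 8.50 in Kit- samples 1 to 3. Its log2 fold was 2.83 (SE 0.22, limma adjusted p = 0.000563), which checks the labels and is no finding. Klrb1c and Ncr1, which encode the NK receptors NK1.1 and NKp46, were above background on all 6 arrays.

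Genes of mitosis and the spindle were higher in Kit+ than in Kit- NK cells. Of the 31 genes bright enough to be tested, 12 rose and 0 fell at an adjusted p under 0.05 (limma with the title number as a block, adjusted over all 11742 tested genes). In the same fit 3.92% of all tested genes rose and 4.42% fell, and at an unadjusted p under 0.05 the counts of the set were 18 higher and 0 lower, beside 13.0% of all tested genes higher and 9.22% lower. The 12 were Prc1, Nusap1, Kif23, Tpx2, Birc5, Cdca8, Cdca3, Kif22, Plk1, Cenpe, Bub1b and Mki67, with log2 folds between 0.71 and 1.91. The median log2 fold of the 31 was 0.48, beside 0.03 over all tested genes. Over all 37 genes with a probe it was 0.38, beside 0.02 over all 17626 genes with a probe. Genes were chosen for testing by their mean over both groups, so a gene dim in Kit- could enter through its Kit+ signal, or the reverse. In a population measured in bulk, a larger number of cycling cells and more of these transcripts in each cell cannot be told apart.

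Without the block, 2 of the 31 genes rose, Nusap1 and Prc1, and 0.528% of all tested genes did. With median centring of the arrays in place of quantile normalization, 0 rose in limma (14 higher at an unadjusted p under 0.05), and the median log2 fold was 0.43 over the 32 genes that this setting tested. At that unadjusted p, 1643 of all 11701 genes tested in this setting passed, in either direction. Without the number 2 samples 1 rose, Nusap1, while the median log2 fold was 0.45 and all 12 genes still had a log2 fold above 0.

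**Figure D1:**
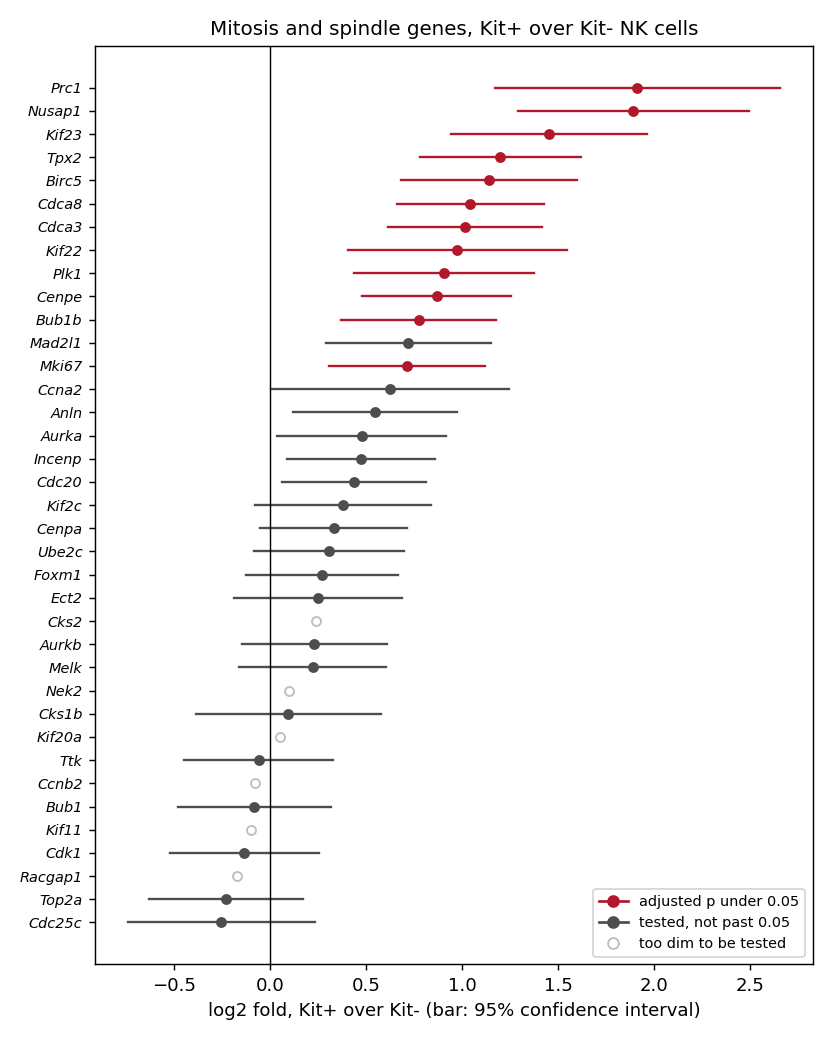
Log2 fold of Kit+ over Kit- for each of the 37 measured genes, ordered by size, with 95% confidence intervals from the blocked limma fit. Filled red points mark the 12 genes past the threshold, between 0.71 and 1.91, grey points the tested genes that did not pass, and open points the 6 genes too dim to be tested.

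The labels do not say outright that samples of 1 number came from 1 sort. For 24 of the 31 tested genes the Kit+ sample was the higher one in every number, which was so for 24.3% of all tested genes, and 0 were lower in every number (5 had a log2 fold below 0). For 13 of the 31 every Kit+ array lay above every Kit- array, against 10.0% of all tested genes. The median difference of the 31 genes, Kit+ minus Kit-, was 0.55 for number 1, 0.75 for number 2 and 0.31 for number 3, with 28, 28 and 26 genes higher in Kit+. Over all tested genes the median difference was 0.07, -0.0018 and 0.04, with 57.7%, 49.8% and 55.9% higher in Kit+. On the Kit+ arrays 24, 20 and 16 of the 37 genes were above background for numbers 1 to 3, against 19, 6 and 12 on the Kit- arrays. The background level of the number 2 arrays was 6.94 for Kit+ and 7.23 for Kit-, and the part of the level in that count was not tested.

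**Figure D2:**
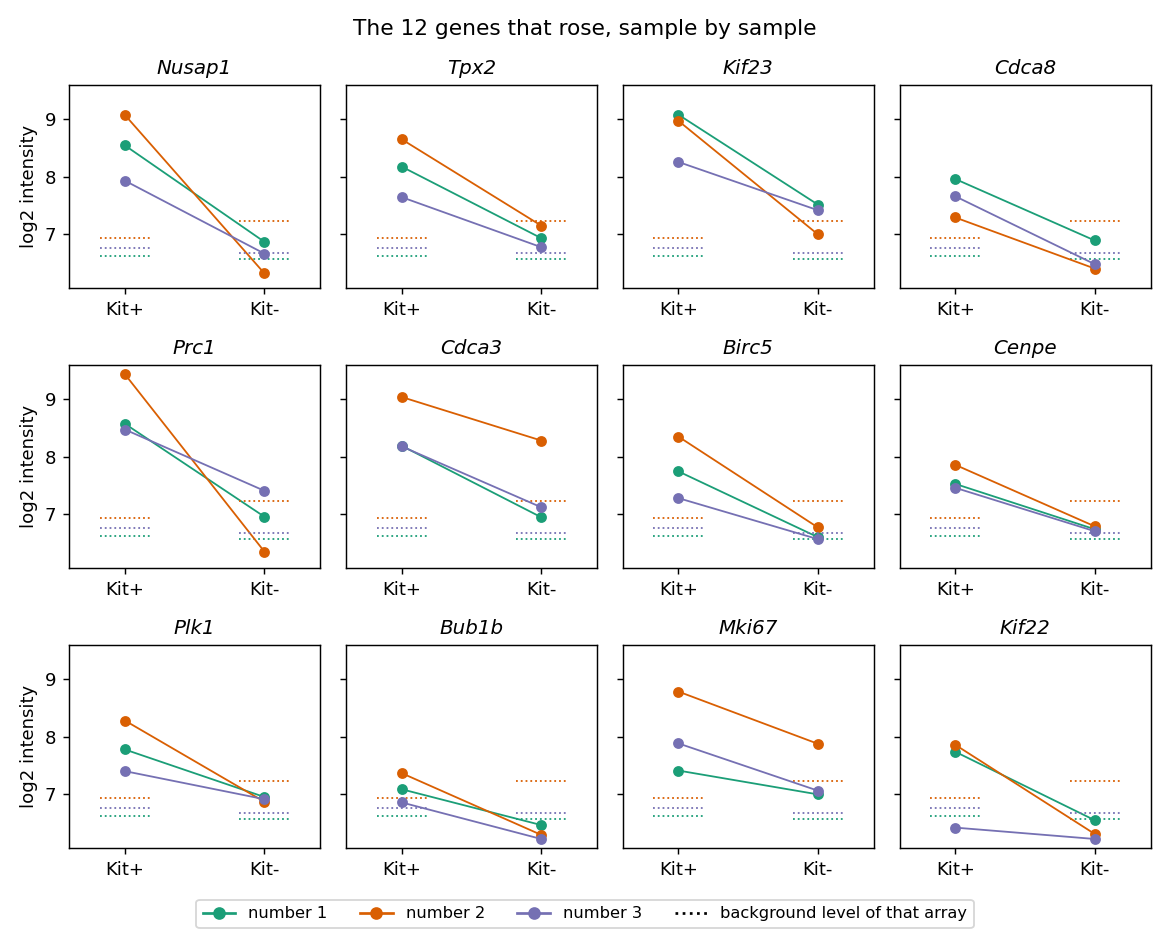
Log2 intensity of the 12 genes that rose, in Kit+ (left) and Kit- (right) samples, with a line joining samples of 1 number and dotted marks at the background level of each array. Every line falls from Kit+ to Kit-, and the Kit- values of Bub1b and Kif22 lie below the background level on all 3 arrays.

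Of the genes of the central spindle and cytokinesis, 2 of 4 tested rose, with a median log2 fold of 1.00 over the 4. Prc1 bundles the antiparallel microtubules of the central spindle. It had 8.57, 9.43 and 8.47 in Kit+ samples 1 to 3, against 6.96, 6.36 and 7.41 in Kit- samples 1 to 3. All Kit+ values lay above all Kit- values, and Prc1 rose 3.77-fold (a log2 fold of 1.91 with an SE of 0.33, limma adjusted p = 0.00996, 0.0482 without the block). Kif23, the kinesin of the centralspindlin complex, had 9.07, 8.97 and 8.25 in Kit+ samples, against 7.52, 7.00 and 7.42 in Kit- samples. The groups did not overlap, and Kif23 rose 2.74-fold (a log2 fold of 1.45 with an SE of 0.23, limma adjusted p = 0.00695, 0.0523 without the block). Prc1 and Kif23 each passed the background level on 2 of 3 Kit- arrays. Raising the remaining array to that level gave folds of 3.08 and 2.59. Anln, the contractile ring scaffold anillin, had a log2 fold of 0.55 (limma adjusted p = 0.118) and Ect2, the exchange factor that activates RhoA at the cell equator, of 0.25 (limma adjusted p = 0.544). Racgap1, the partner of Kif23, and Kif20a, another kinesin of the central spindle, were above background on no array.

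Of the kinesins and spindle proteins, 3 of 4 tested rose, with a median log2 fold of 1.09 over the 4. Nusap1, which bundles and anchors spindle microtubules near chromosomes, had 8.54, 9.07 and 7.93 in Kit+ samples 1 to 3, against 6.87, 6.33 and 6.67 in Kit- samples 1 to 3. The lowest Kit+ value lay more than 1 log2 unit above the highest Kit- value, and Nusap1 rose 3.71-fold (a log2 fold of 1.89 with an SE of 0.27, limma adjusted p = 0.00423, 0.036 without the block). It passed the background level on 1 of 3 Kit- arrays, and raising the others to that level gave a fold of 3.01. Tpx2, which activates Aurora A on the spindle, had 8.17, 8.65 and 7.64 in Kit+ samples, against 6.94, 7.15 and 6.78 in Kit- samples. The groups did not overlap, and Tpx2 rose 2.30-fold (a log2 fold of 1.20 with an SE of 0.19, limma adjusted p = 0.00664, 0.0945 without the block). Kif22, a chromosome-arm kinesin, had 7.74, 7.86 and 6.42 in Kit+ samples, against 6.55, 6.31 and 6.23 in Kit- samples. Number 3 showed little of the difference, and the groups overlapped. All Kit- values of Kif22 were below background, so its rise is given as at least 1.43-fold (limma adjusted p = 0.0466, 0.303 without the block). Kif2c, a microtubule-depolymerising kinesin, had a log2 fold of 0.38 (limma adjusted p = 0.331), and Kif11, the bipolar spindle kinesin, was too dim to be tested.

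Among genes of the chromosomal passenger complex and the centromere, 3 of 6 rose. Birc5, which encodes survivin, had 7.74, 8.35 and 7.28 in Kit+ samples 1 to 3, against 6.60, 6.77 and 6.57 in Kit- samples 1 to 3. It rose 2.21-fold without overlap of the groups (a log2 fold of 1.14 with an SE of 0.20, limma adjusted p = 0.0114, 0.113 without the block). Cdca8, which encodes borealin, had 7.96, 7.29 and 7.66 in Kit+ samples, against 6.89, 6.41 and 6.48 in Kit- samples. It rose 2.06-fold, again with no overlap (a log2 fold of 1.04 with an SE of 0.17, limma adjusted p = 0.0081, 0.0945 without the block). Birc5 and Cdca8 each passed the background level on 1 of 3 Kit- arrays, and raising the others to it gave folds of 1.94 and 1.63. Cenpe, the kinetochore motor that aligns chromosomes, had 7.53, 7.86 and 7.46 in Kit+ samples, against 6.74, 6.79 and 6.71 in Kit- samples. The samples of each group lay close together, and Cenpe rose 1.83-fold (a log2 fold of 0.87 with an SE of 0.17, limma adjusted p = 0.0171, 0.0783 without the block), above background on 2 of 3 Kit- arrays. The other members of the complex did not pass the threshold. Incenp, its scaffold, had a log2 fold of 0.47 (95% confidence interval 0.09 to 0.86, limma adjusted p = 0.132), and Aurkb, its kinase, was above background on no array. Cenpa, the centromeric histone H3 variant, was the brightest of the 37 genes, with 9.38, 10.61 and 10.29 in Kit+ samples, against 9.02, 10.44 and 9.82 in Kit- samples. It was higher in the Kit+ sample of every number, but its log2 fold of 0.33 (95% confidence interval -0.05 to 0.72) did not pass (limma adjusted p = 0.305).

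Of the 3 tested mitotic kinases outside these complexes, 1 rose. Plk1, the Polo-like kinase, had 7.78, 8.28 and 7.40 in Kit+ samples 1 to 3, against 6.96, 6.87 and 6.92 in Kit- samples 1 to 3. It rose 1.87-fold, with no overlap and with 2 of 3 Kit- arrays above background (a log2 fold of 0.91 with an SE of 0.21, limma adjusted p = 0.0316, 0.148 without the block). Aurka, the Aurora kinase of the spindle poles, had a log2 fold of 0.48 (limma adjusted p = 0.185), Melk was above background on no array, and Nek2, a kinase of centrosome separation, was too dim to be tested. Of the 6 genes of the spindle checkpoint and of the anaphase-promoting complex, Bub1b, which encodes BubR1, was the 1 that rose. It had 7.09, 7.37 and 6.86 in Kit+ samples, against 6.47, 6.30 and 6.23 in Kit- samples. Since no Kit- array was above background, its rise is at least 1.21-fold (limma adjusted p = 0.032, 0.135 without the block). Mad2l1, the checkpoint protein that binds Cdc20, had 7.82, 7.63 and 7.35 in Kit+ samples, against 7.08, 6.58 and 6.99 in Kit- samples. The groups did not overlap, yet its log2 fold of 0.72 missed the threshold (limma adjusted p = 0.0513). Cdc20, the activator of the anaphase-promoting complex, had a log2 fold of 0.44 (limma adjusted p = 0.149) and Ube2c, its ubiquitin-conjugating enzyme, of 0.31 (limma adjusted p = 0.359). The checkpoint kinases Bub1 and Ttk had log2 folds of -0.08 and -0.06.

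Of the 2 genes listed as proliferation markers, Mki67 and Top2a, 1 rose, and of the 6 tested cyclins, Cdk1 and its regulators, 1 rose. These were Mki67 and Cdca3, each higher in Kit+ in every number, although their groups overlapped. Mki67 had 7.41, 8.78 and 7.88 in Kit+ samples 1 to 3, against 7.00, 7.88 and 7.06 in Kit- samples 1 to 3. Both number 2 samples were the brighter ones of their group, and Mki67 rose 1.64-fold (a log2 fold of 0.71 with an SE of 0.18, limma adjusted p = 0.0434, 0.532 without the block). Cdca3, a cofactor in the destruction of the Cdk1 inhibitor Wee1, had 8.19, 9.03 and 8.18 in Kit+ samples, against 6.95, 8.28 and 7.12 in Kit- samples. It rose 2.02-fold (a log2 fold of 1.02 with an SE of 0.18, limma adjusted p = 0.0109, 0.312 without the block). Mki67 and Cdca3 were above background on all 6 arrays, as were Incenp and Cenpa.

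The other genes of these roles did not pass or were too dim to be tested. Cdk1, the mitotic kinase itself, had 6.21, 6.65 and 6.34 in Kit+ samples 1 to 3, against 6.49, 6.59 and 6.52 in Kit- samples 1 to 3. None of these was above background, so no fold is given, and the log2 difference was -0.13 (95% confidence interval -0.52 to 0.25, limma adjusted p = 0.756). Top2a, the topoisomerase that untangles sister chromatids, had 6.23, 6.02 and 6.33 in Kit+ samples, against 6.62, 5.97 and 6.69 in Kit- samples. It passed the background level on 0 of 3 Kit+ and 2 of 3 Kit- arrays, and its log2 difference was -0.23 (limma adjusted p = 0.545). Foxm1, the transcription factor of G2 and mitosis genes, had 6.63, 6.64 and 6.14 in Kit+ samples, against 6.37, 6.15 and 6.09 in Kit- samples (log2 difference 0.27, limma adjusted p = 0.443). Ccna2, which encodes cyclin A, had 8.05, 6.11 and 6.16 in Kit+ samples, against 6.50, 5.96 and 5.98 in Kit- samples. Its signal was above background on 1 array, that of Kit+ 1 (log2 difference 0.63, limma adjusted p = 0.219). Cdc25c, the phosphatase that activates Cdk1, had a log2 difference of -0.25 (limma adjusted p = 0.596), and Cks1b, a small Cdk-binding subunit, of 0.10 (limma adjusted p = 0.871). Ccnb2, a B-type cyclin, and Cks2, the relative of Cks1b, were too dim to be tested. Missing the threshold does not show that these genes were equal in both groups.

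On the Kit- arrays alone, the means of the 12 genes that rose lay between 6.33 and 7.45 and those of the tested genes that did not pass between 6.14 and 9.76, so the ranges overlapped. In all, 15 of the 37 genes were above background on all Kit+ arrays, 4 on all Kit- arrays, and 8 on no array. Of all 17626 genes with a probe, the same counts were 5285, 4356 and 7741.

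**Figure D3:**
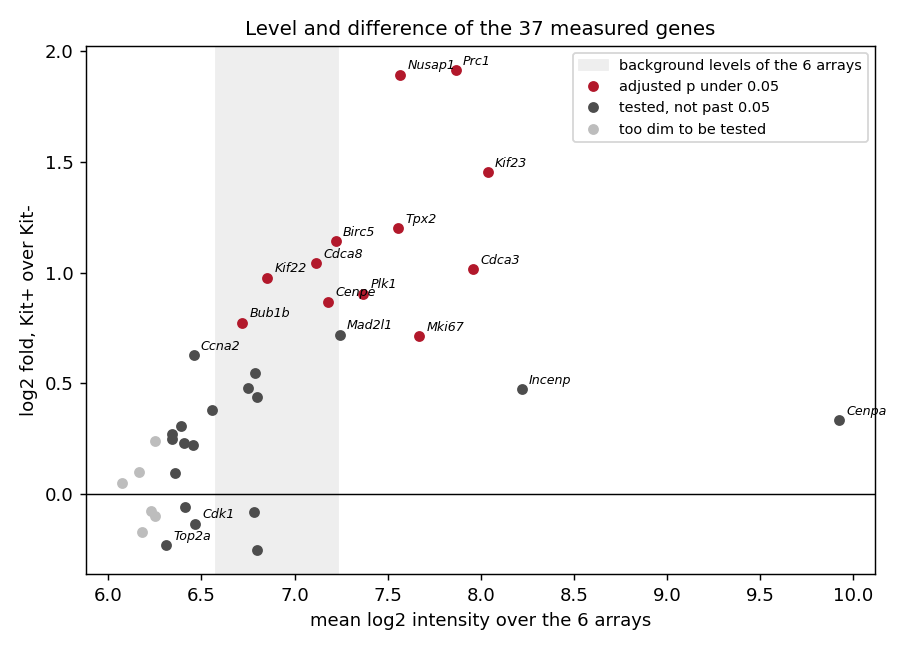
Mean log2 intensity over the 6 arrays (x axis) and log2 fold of Kit+ over Kit- (y axis) of the 37 measured genes, with the range of the arrays' background levels, 6.58 to 7.23, shaded. The tested genes below the shaded band have log2 folds between -0.23 and 0.63. The mean on the x axis holds the Kit+ arrays, so a higher Kit+ signal also moves a gene to the right.

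Different probes of 1 gene did not always show the same difference. Of the 37 genes, 23 had more than 1 probe, and in 15 of these another probe had the opposite sign. For Nusap1, Prc1, Cenpe and Plk1 the other probes were above background on no array, with log2 differences between -0.09 and 0.28. The other 2 Birc5 probes had log2 differences of 0.23 and 0.54. The chosen Cdca8 probe is annotated to a cDNA clone, and the other 2 probes of Cdca8, with log2 differences of -0.02 and 0.05, were at background except on 1 array. The other Kif23 probes had log2 differences of -0.10, with 2 of 6 arrays above background, and 0.04. A second Mki67 probe, above background on 3 of 6 arrays, had a log2 difference of -0.19. With the mean of all probes of a gene, 4 of the set rose, Bub1b, Cdca3, Nusap1 and Tpx2, and of these only Nusap1 has more than 1 probe.

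The promoters of the set share sequence features that the choice of genes did not use. Genes of G2 and mitosis are known to carry a cell cycle homology region, bound by the MuvB complex, next to CCAAT boxes bound by NF-Y. RefSeq promoter windows of GRCm38.p6, from 250 bases before to 50 after the start of transcription, matched 31 of the 38 genes. Those with no entry were Aurkb, Ccna2, Cdc25c, Foxm1, Incenp, Kif20a and Tpx2. That region was searched as TTTGAA, with TTCGAA as a variant, on either strand and in any overlap with another motif. It stood in the windows of 23 of the 31 genes (74.2%), against 21.7% of all 27025 genes with a window. CCAAT, on either strand, stood in 25 of the 31 (80.6%), against 41.1% of all. Both motifs were as common in the genes that rose as in the rest of the set: the homology region in 8 of 11 (72.7%) and 15 of 20 (75.0%), and CCAAT in 9 of 11 (81.8%) and 16 of 20 (80.0%). The E2F motif, searched as TTTGGCGC, with TTTCCCGC as a variant, stood in 0 of the 31 windows and in 1.80% of all. A match is a description of letters and not a binding site.

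The 150 bases before the start of transcription are shown for genes that carry both motifs there, with both in capitals on the strand of the gene. Prc1, Kif22 and Mki67 rose and Cdk1, Cdc20 and Top2a did not pass, so the pair of motifs stands in both kinds. Capitals also mark their reverse complements. For Prc1, with 2 annotated starts, the window of the later start is shown.
Prc1 (chr7:80294326-80294475, plus strand): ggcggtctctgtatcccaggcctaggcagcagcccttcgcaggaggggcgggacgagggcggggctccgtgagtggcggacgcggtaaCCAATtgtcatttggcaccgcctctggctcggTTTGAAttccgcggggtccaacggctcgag
Kif22 (chr7:127042421-127042570, minus strand): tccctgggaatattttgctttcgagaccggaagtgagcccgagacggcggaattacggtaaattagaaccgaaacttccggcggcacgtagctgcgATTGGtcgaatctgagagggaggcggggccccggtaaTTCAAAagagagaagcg
Mki67 (chr7:135716380-135716529, minus strand): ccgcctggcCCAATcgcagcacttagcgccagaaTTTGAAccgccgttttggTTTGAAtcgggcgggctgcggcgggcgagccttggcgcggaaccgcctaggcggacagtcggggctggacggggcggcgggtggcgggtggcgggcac
Cdk1 (chr10:69352913-69353062, minus strand): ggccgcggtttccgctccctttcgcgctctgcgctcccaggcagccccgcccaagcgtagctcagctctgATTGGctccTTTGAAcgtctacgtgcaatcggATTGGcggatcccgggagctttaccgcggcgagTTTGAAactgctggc
Cdc20 (chr4:118437344-118437493, minus strand): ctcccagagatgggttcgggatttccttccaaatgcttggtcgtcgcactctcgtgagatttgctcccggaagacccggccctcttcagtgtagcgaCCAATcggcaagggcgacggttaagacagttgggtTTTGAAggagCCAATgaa
Top2a (chr11:99024190-99024339, minus strand): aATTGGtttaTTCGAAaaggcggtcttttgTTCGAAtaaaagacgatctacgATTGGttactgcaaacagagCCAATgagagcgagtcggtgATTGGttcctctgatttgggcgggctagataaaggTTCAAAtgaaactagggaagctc

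In Prc1 the homology region begins 30 bases and the CCAAT box 62 bases before the start. In Kif22 the same features begin 17 and 54 bases before it. Mki67 carries 2 homology regions, 116 and 98 bases before the start, and Cdk1 carries 2 as well, 71 and 15 bases before it. The windows of Nusap1 and Birc5, which rose, held neither motif.

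**Figure D4:**
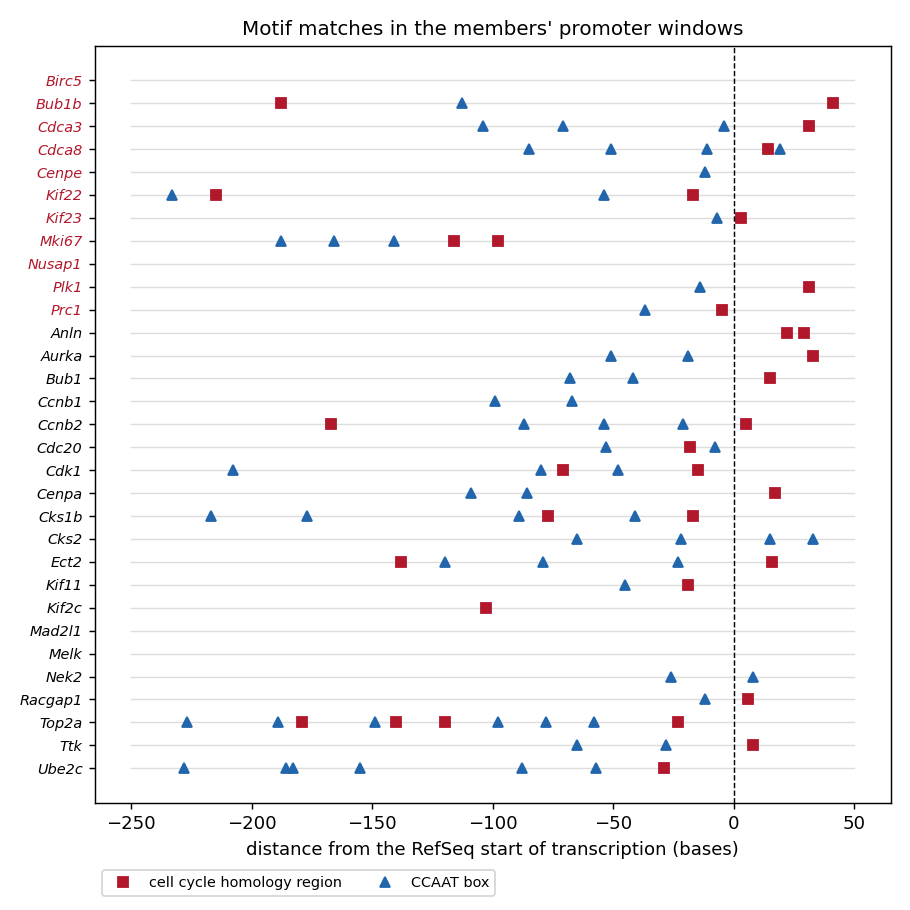
Distance from the RefSeq start of transcription (x axis, bases) of the first base of each match to the cell cycle homology region (squares) and CCAAT (triangles), for the 31 genes with a promoter window, the first window where a gene has 2. Names in red are genes that rose. Squares cluster near the start in genes that rose and in genes that did not, and the rows of Birc5, Nusap1, Mad2l1 and Melk are empty.

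Other genes of cell division were taken from lists by pathway. At an adjusted p under 0.05 in limma, 3.92% of all tested genes rose and 4.42% fell, which stands beside the counts of each list. Of 19 further spindle and cytokinesis genes 6 rose and 1 fell. Spag5, which encodes the spindle protein astrin, rose (log2 fold 1.09, limma adjusted p = 0.00851), as did Kif20b (log2 fold 0.91, limma adjusted p = 0.0166), while Numa1, a spindle pole protein, fell by 1.06 on the log2 scale (limma adjusted p = 0.0161). Of 19 condensin and cohesin genes 4 rose and 0 fell (10 higher and 1 lower at an unadjusted p under 0.05 in limma, beside the 13.0% and 9.22% of all tested genes). They included Cdca5, which encodes the cohesin protector sororin (log2 fold 1.17, limma adjusted p = 0.0157), the cohesin loader Nipbl (log2 fold 1.21, limma adjusted p = 0.0271) and the cohesin subunit Smc3 (log2 fold 0.97, limma adjusted p = 0.0454). Of 25 further kinetochore and centromere genes 2 rose, Spc24 and Zwint (log2 folds 1.17 and 0.71, limma adjusted p = 0.0136 and 0.0458), and 1 fell, the centromere-binding gene Cenpb (log2 fold -0.82, limma adjusted p = 0.0438). Of 20 centrosome genes 2 rose, Haus1 and Haus3 of the augmin complex (log2 folds 0.96 and 0.85, limma adjusted p = 0.0138 and 0.017). Of 16 further genes of the anaphase-promoting complex 0 rose and 0 fell in limma (4 higher and 1 lower at an unadjusted p under 0.05, beside the same 13.0% and 9.22%), the nearest being its activator Fzr1 (log2 fold -0.75, limma adjusted p = 0.0546). Of 18 genes of mitotic entry and of the MuvB and DREAM complexes, 0 rose and 1 fell, the histone-binding subunit Rbbp4 (log2 fold -1.46, limma adjusted p = 0.00331).

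Genes of DNA replication and the G1 to S transition rose in 9 and fell in 3 of 47, beside the same 3.92% and 4.42%. Uhrf1, which maintains DNA methylation in S phase, rose (log2 fold 1.25, limma adjusted p = 0.00438), and the cyclin Ccnd2 fell (log2 fold -1.30, limma adjusted p = 0.00315). The clamp loader subunit Rfc2 passed the background level on 0 of 3 Kit+ arrays, and its fall was at least 2.22-fold (limma adjusted p = 0.000866). Of 14 genes that slow or stop the cycle 0 rose and 3 fell: the antiproliferative genes Btg1 and Tob1, and Cdkn2d, an inhibitor of Cdk4 and Cdk6 (log2 folds -2.77, -1.22 and -1.49, limma adjusted p = 0.00043, 0.0141 and 0.011). The median log2 fold was 0.16 for the spindle and cytokinesis list, 0.53 for condensin and cohesin, 0.17 for kinetochore and centromere, 0.14 for the centrosome, 0.16 for the anaphase-promoting complex, 0.11 for mitotic entry, 0.23 for replication and -0.28 for the brakes, beside 0.48 for the mitosis set. Without the block, 1 replication gene rose and 2 fell, 1 mitotic entry gene and 1 brake fell, and 0 genes of the other 5 lists passed. In that fit 62 of all 11742 tested genes rose and 89 fell.

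**Figure D5:**
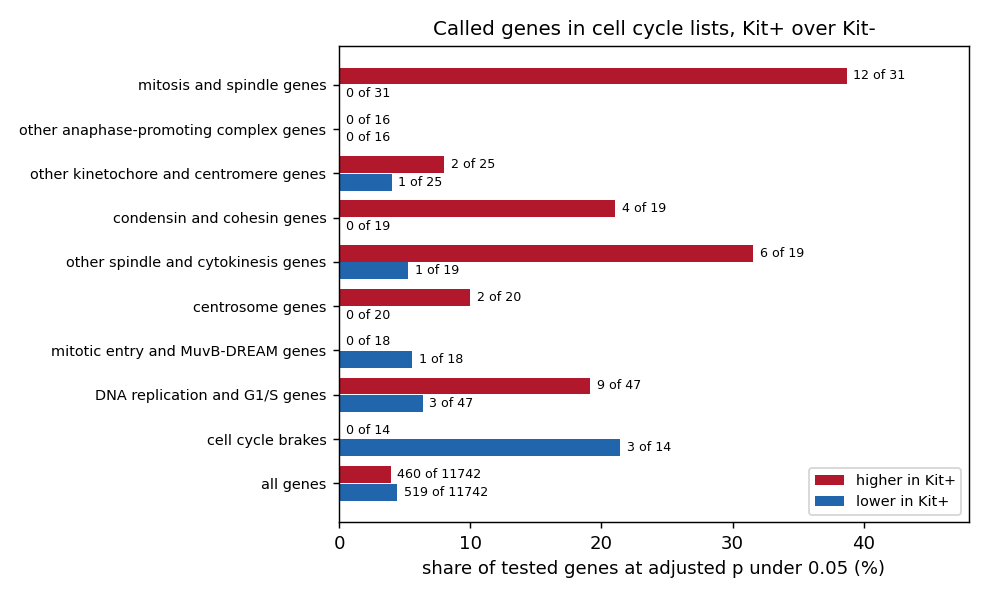
Share of tested genes called higher (red) or lower (blue) in Kit+ than in Kit-, in percent, for the mitosis and spindle set, 8 other lists of cell division genes and all tested genes. The mitosis and spindle set has 12 of 31 higher and 0 lower, and the brakes have 0 higher and 3 of 14 lower.

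Markers of other cells differed between the same samples, and their part in the rise of mitosis genes was not tested. The counts of each list stand beside 3.92% of all tested genes that rose and 4.42% that fell. Summed over the probes of a list, the intensity of 17 macrophage and monocyte markers was 3922 to 4391 on Kit+ arrays and 1652 to 1852 on Kit- arrays, and 7 of 15 tested rose and 0 fell (Mpeg1 had the smallest p). The sum of 19 haematopoietic progenitor markers was 1963 to 2964 on Kit+ arrays and 1599 to 1700 on Kit- arrays, and 4 of 13 rose. Among them were Lmo2, Mpo and Myb (log2 folds 1.33, 1.42 and 1.07, limma adjusted p = 0.00337, 0.0112 and 0.0361). Lmo2 and Myb encode transcription factors, and Mpo also stands among the neutrophil markers. Myb had 9.22, 7.40 and 6.82 in Kit+ samples 1 to 3, against 7.41, 6.37 and 6.45 in Kit- samples 1 to 3. Cd34, a defining marker of progenitors, was above background on no array. The sum of 13 erythroid markers was 2108 to 2992 on Kit+ arrays and 1502 to 2111 on Kit- arrays, and 1 of 11 rose, Tal1, which also stands among the progenitor markers. That sum weighs most on the haemoglobin gene Hba-a1, the brightest of the list by mean in both groups. Hba-a1 had 9.46, 9.49 and 10.32 in Kit+ samples 1 to 3, against 8.76, 8.91 and 7.57 in Kit- samples 1 to 3. Its log2 fold of 1.35 did not pass (limma adjusted p = 0.0594). The sum of 12 mast cell and basophil markers was 1161 to 1289 on Kit+ arrays and 1673 to 2295 on Kit- arrays, and 1 of 7 fell, the chymase gene Cma1. Without Cma1 the sum of the other 11 was 938 to 1005 on Kit+ arrays and 837 to 927 on Kit- arrays, which turns the direction. The largest log2 fold among them was that of Gata2, 0.68 (limma adjusted p = 0.102), and Gata2 also stands among the progenitor markers. Of the 12 genes 7 were above background on no array, among them the mast cell protease gene Cpa3. Of the dendritic cell markers 5 of 12 rose and 1 fell, of the neutrophil markers 4 of 11 rose, of the T cell markers 2 of 11 rose, and of the B cell markers 1 of 11 rose. The corresponding sums were 6656 to 14342 on Kit+ arrays and 5917 to 9264 on Kit- arrays for dendritic cells, 1570 to 3278 and 1161 to 1345 for neutrophils, 3915 to 5424 and 2377 to 3615 for T cells, and 1160 to 2187 and 1083 to 1300 for B cells. The T cell sum weighs most on Cd3d, the brightest of that list on every array (log2 fold 1.44, limma adjusted p = 0.00331). The defining marker Cd3e went the other way (log2 fold -0.81, limma adjusted p = 0.097). Of the 11 tested T cell markers, 6 had a log2 fold above 0 and 5 below. Of 12 tested NK markers 4 fell, with the smallest p for the perforin gene Prf1, and the sum of 13 was 35157 to 38042 on Kit+ arrays and 42573 to 49951 on Kit- arrays. Without the block, 5 macrophage markers and 1 dendritic cell marker rose, 2 NK markers and 1 mast cell marker fell, and no marker of the other 5 lists passed. Of all 11742 tested genes, 62 rose and 89 fell in that fit.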

How the data were processed

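RNA of 6 sorted NK cell samples was measured on 1-colour Illumina bead arrays of 45988 probes. Raw intensity of each probe was deposited per array, per the file headers, without detection p-values, and BeadStudio 3.1.1.0 is named per the submitters' processing notes. The authors' deposited value table is linear intensity too. Each of its columns has a median of 92.78 and equals quantile normalized raw intensity to within a relative difference of 0.000223, with no centring and high values for bright probes.

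Raw intensity was corrected with normexp (offset 50), log2 transformed and quantile normalized. Genes were named through the platform annotation: 29457 probes had 1 symbol, 11 several and 16520 none. Of the probes with 1 symbol, 29399 had a gene ID with a RefSeq symbol, which was used whether or not it differed. A gene was tested where its chosen probe had a mean above the median of all probes (6.31). The test was that of limma 3.58.1 (lmFit, eBayes; R 4.3.3), with the title number as a block and Benjamini-Hochberg adjustment over 11742 genes. The block was taken because the labels describe repeated sorts and number the samples, although they do not state outright that a number is 1 sort. Across genes, samples of 1 number deviated together from the means of their groups (correlations 0.641, 0.529 and 0.278), while those of different numbers correlated between -0.576 and 0.0882. The deviations within a group cancel for each gene, so the lower values for different numbers follow in part from the centring. P-values of the blocked fit reflect the spread between numbers of the Kit+ minus Kit- difference, drawn by eBayes towards the spread of all genes. Those without the block reflect the spread of samples within a group, drawn in the same way. The labels do not say that samples came from separate mice, so either spread may be technical, and the number of arrays limits the precision.

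A fold is a lower bound where 1 group was not above background on any of its arrays: the brighter group's mean is set against the dimmer group's, with each dim array at its own signal or its background level, whichever is higher. The summed intensities of marker lists hold the offset in every probe. Genes named are all members by their role, and of other lists up to 3 past the threshold with the smallest p or the 1 nearest to it. Defining markers, and genes that weigh on a summed intensity, are also named. The members and lists were chosen with earlier results of these data known. The fit was tested on simulated data.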

Additional observations from a re-analysis of the deposited data

How the results depend on the processing

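The median log2 fold of the mitosis and spindle genes stayed above 0 under all 16 alternatives tried, and the log2 fold of the 12 genes that rose stayed above 0 in each alternative that tested them, while the number past the threshold did not hold. With no replicate block 2 rose, with median centring 0 (14 higher at an unadjusted p under 0.05 in limma, beside 1643 of all 11701 genes in either direction) and with the mean of all probes 4. Over all tested genes these settings called 62 higher and 89 lower, 14 higher and 10 lower, and 209 higher and 351 lower, against 460 and 519. With 1 number or 1 sample left out, 0 to 12 of the set rose, 0 to 687 genes were higher and 0 to 554 lower, and the median of the set was 0.39 to 0.63. The lone samples were left out of the fit with no replicate block, where 0 of the set rose in all 6 cases (10 to 14 of 31 higher at an unadjusted p under 0.05 in limma, beside 1179 to 1615 of all 11742 genes in either direction). A number was left out of the blocked fit, where 12 rose without number 1, 1 without number 2 and 12 without number 3. Without number 2, 62 genes were higher and 98 lower, and single samples left out gave up to 28 higher (Kit- 1) and 50, 22 and 23 lower (Kit- 1, Kit+ 1 and Kit- 2). The median of the set was 0.73 with offset 16 and 0.87 over the 17 genes above background on at least 3 arrays, a filter that keeps genes through their Kit+ signal. Kit had a log2 fold of 2.89 with median centring (limma adjusted p = 0.0523), 0.99 with the mean of all probes (limma adjusted p = 0.0126) and 2.38 to 3.12 with a number or sample left out. In the fits without 1 sample it missed the threshold, at 2.53, 3.06 and 2.91 without Kit- 1, 2 and 3, and 3.08, 2.38 and 3.04 without Kit+ 1, 2 and 3 (limma adjusted p 0.0564 to 0.103). Of 191 values of the 12 genes over the alternatives, 74 passed the threshold and 117 did not, and 0 changed sign. Of the 12, Nusap1 passed in 9 of 16 alternatives, and Kif22 in 3 of 15. The cause of these changes was not tested. Of 544 counts for the other lists 208 moved by over 1.5 times.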
